A study of Caenorhabditis elegans with 2 samples.

Results

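The cytosolic ribosomal protein genes of Caenorhabditis elegans were examined in a ChIP-seq map of PAG-3, a zinc finger transcription factor of the Gfi1 family known for its roles in neuron fate. Members were all Ensembl protein-coding genes named rpl or rps with a number, together with rla-0, rla-1 and rla-2. The rule took 79 of the 19973 protein-coding genes of the 6 nuclear chromosomes. By name alone, 48 (rpl and rla) were assigned to the large and 31 (rps) to the small ribosomal subunit. Mitochondrial ribosomal protein genes were left out, and the names rpl-7A and rpl-36.A lack the plain number that the rule asks for. The rule used names alone and no measured value.

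The cytosolic ribosome is built from ribosomal RNA and one copy of nearly every ribosomal protein, so cells make these proteins in matched amounts. The large subunit joins amino acids, and the small subunit reads the messenger RNA. The genes are among the most highly expressed in growing tissue, and their expression is tied to growth and nutrient supply. Many worm genes share a short intergenic region with a neighbour that is read in the other direction, so a peak between both starts cannot be given to one gene.

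Both samples came from strain OP154, which carries unc-119(ed3) and the integrated transgene wgIs154 and expresses PAG-3 with GFP and FLAG at its C-terminus. Hermaphrodite L1 larvae were synchronized by starvation after bleaching and taken 6 hours later, and the tag was precipitated with an antibody against GFP. The 2 biological replicates form 1 group from 1 transgenic strain. No untreated or control sample was analysed here. Whole animals were used, so the cells in which the protein sat on DNA cannot be told apart. The tagged protein itself has no value in the peak lists, and regions that turn up with many unrelated factors were left unmarked.

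The authors' joint list, called on both replicates together, holds 30000 regions, with a signal (the height given by their peak caller, on a scale that is not stated) from 13.1 to 1509. The set thresholded on reproducibility between replicates (the irreproducible discovery rate) consists of the 910 highest regions of that list, from a signal of 43.4 upwards, with a median of 58.5. Each replicate also has its own list of 30000 regions. The number of reads behind a region is unknown. The promoter window ran from 1000 bp upstream to 200 bp downstream of the annotated start, and positions are those of ce11, counted from 1.

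Sequences around the summits (the highest point of each peak) show the bound stretches that the results turn on. The first 4 belong to the members with the highest peaks, leaving out rps-20. The other 3 were chosen after their values were seen, because they hold words shared with the first 4. Each is 101 bases centred on the summit, 5′ to 3′ on the strand of the gene, from the RefSeq genome of the same assembly. Capitals mark matches, on either strand, to the words counted in the text. These are GAGAGA and the words ATGGCA and also GACGCA, the word ACACTCG, the word TACCGTA, and a run of 12 bases that rpl-15, rpl-20 and rps-12 share, which is the first run of capitals in each of those 3 windows.
rpl-11.2: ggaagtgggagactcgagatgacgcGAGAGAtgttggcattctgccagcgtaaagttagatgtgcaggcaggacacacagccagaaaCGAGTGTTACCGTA
rpl-15: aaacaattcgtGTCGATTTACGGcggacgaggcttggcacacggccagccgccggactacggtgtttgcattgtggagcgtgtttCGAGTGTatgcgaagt
rps-12: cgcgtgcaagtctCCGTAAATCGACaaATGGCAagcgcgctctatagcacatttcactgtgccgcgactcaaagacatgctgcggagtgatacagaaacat
rpl-20: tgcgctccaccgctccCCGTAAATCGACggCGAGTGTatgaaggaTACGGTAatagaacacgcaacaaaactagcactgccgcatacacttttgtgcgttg
rpl-3: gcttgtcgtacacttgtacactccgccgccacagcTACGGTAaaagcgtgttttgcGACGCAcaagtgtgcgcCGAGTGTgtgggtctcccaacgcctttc
rpl-43: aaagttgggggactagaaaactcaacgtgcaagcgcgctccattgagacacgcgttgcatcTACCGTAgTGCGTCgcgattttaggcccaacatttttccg
rps-23: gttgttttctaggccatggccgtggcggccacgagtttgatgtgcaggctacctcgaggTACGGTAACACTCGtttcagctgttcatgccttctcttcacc

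These windows lie at chrX:2242960-2243060 (rpl-11.2, minus strand), chrIV:654903-655003 (rpl-15, minus), chrIII:5679076-5679176 (rps-12, plus), chrIV:4750026-4750126 (rpl-20, minus), chrIII:3867532-3867632 (rpl-3, plus), chrII:14154507-14154607 (rpl-43, plus) and chrIV:12391271-12391371 (rps-23, minus). All 7 summits are in intergenic sequence.

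The promoter windows of 15 of the 79 members held a thresholded summit (19.0%, Wilson 95% interval 11.9 to 29.0, which covers counting error only), against 2.56% of all protein-coding genes. The joint list, which runs down into background, placed a summit in the window of 61 members (77.2%), against 40.6% of all genes. Among genes with a joint summit, the highest one had a median rank of 2263 in members and 11152 in all genes, where rank 1 is the highest signal. The difference was thus not confined to the thresholded set: 27 of 79 members (34.2%) had a summit among the highest 2000 regions and 42 (53.2%) among the highest 5000, while the shares of all genes were 5.59% and 11.7%. Genes are not replicates, and neighbours can share a peak, so these shares are given without a test.

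**Figure D1:**
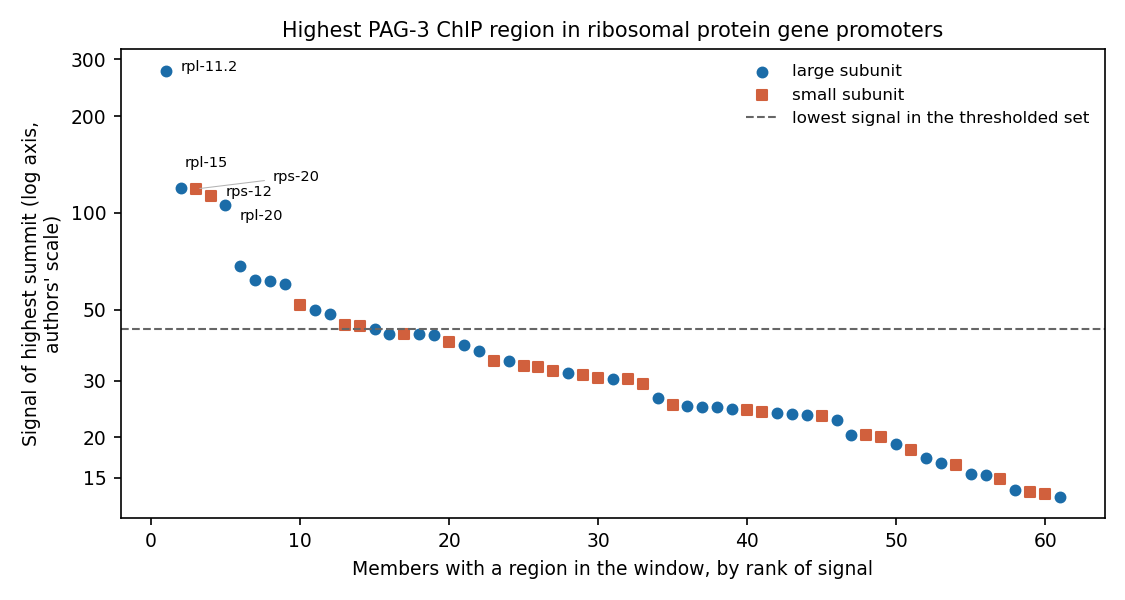
Signal of the highest joint summit in the window of each of the 61 members that have one, in order of signal (log axis, authors' scale). The rpl-11.2 peak at 277.1 stands above 4 others between 105.8 and 119.7, and 15 members lie above the lowest signal of the thresholded set, 43.4 (dashed line).

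The highest peak was that of rpl-11.2, one of the pair of worm genes for ribosomal protein L11, which sits with 5S ribosomal RNA in the large subunit. Its joint signal was 277.1 (rank 24), with 176 (rank 35) in replicate 1 and 101 (rank 10) in replicate 2. The summit lay 392 bp upstream of the start and in no other gene's window. At more than 2 times the signal of the next member, it was the only member peak among the highest 100 regions.

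The next 4 peaks had nearly equal height. The summit of rpl-15, which encodes large subunit protein L15, had a joint signal of 119.7 (rank 104), with 91.1 in replicate 1 and 33.3 in replicate 2. That of rps-20, for small subunit protein S20, had 118.6 (rank 106), with 71.0 and 47.3. The rps-12 summit (small subunit protein S12) had 112.6 (rank 116), with 80.6 and 27.9. The rpl-20 summit had 105.8 (rank 134), with 73.6 and 36.1. Signals of the replicates are on separate scales, since the lists were called separately. By rank, all 5 peaks were among the highest 159 regions of replicate 1 and the highest 181 of replicate 2.

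Large subunit genes made up 10 of the 15 and small subunit genes 5, which is 20.8% of the 48 and 16.1% of the 31 members. Wilson intervals of these shares, 11.7 to 34.3 and 7.09 to 32.6, overlap over most of their length. The other large subunit peaks were those of rpl-3 (68.4), which helps to form the site of peptide bond formation, rpl-43 (61.7), rpl-35 (61.4), rpl-1 (59.9), rpl-25.2 (49.7), rpl-24.2 (48.3) and rpl-41.2 (43.6). In the small subunit they were those of rps-1 (51.6), rps-23 (44.9), which lies at the decoding site, and rps-15 (44.6). The signals of rps-23, rps-15 and rpl-41.2, from 43.6 to 44.9, were just inside the set, and those of rpl-24.1 with rps-10 (42.1) and rpl-23 (41.9) were just outside it.

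Signals in the separate lists, given with replicate 1 before replicate 2, were 44.2 and 34.6 for rpl-3 and 39.6 and 17.7 for rps-1. For rpl-1 the pair was 49.5 and 16.3, for rpl-25.2 it was 31.1 and 16.2, and for rpl-24.2 it was 30.9 and 21.3. In replicate 1 a signal of 31.3 was needed to stand among the highest 910 regions, and in replicate 2 one of 17.1, so rpl-3 and rps-1 passed both and rpl-25.2 neither. Of the 15 peaks, 15 had a summit within 100 bp in the list of replicate 1, and 13 had one in that of replicate 2 (86.7% in both, against 82.5% of all 910 peaks). The missing 2 were rpl-35 and rps-23. At rpl-35, replicate 2 had a summit elsewhere in the window at rank 604, and at rps-23 its highest window summit ranked 17642. Over the 13 peaks matched in both, the median rank was 387 in replicate 1 and 401 in replicate 2, and the Spearman correlation of both ranks was 0.64. These peaks come from the same 2 libraries and were kept for their joint signal. For rpl-43, rpl-41.2 and rps-15 the replicates were far apart, with ranks of 387, 805 and 545 in replicate 1 and 5769, 12879 and 15385 in replicate 2. At rpl-43, replicate 2 had a higher summit elsewhere in the window, at rank 2051.

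**Figure D2:**
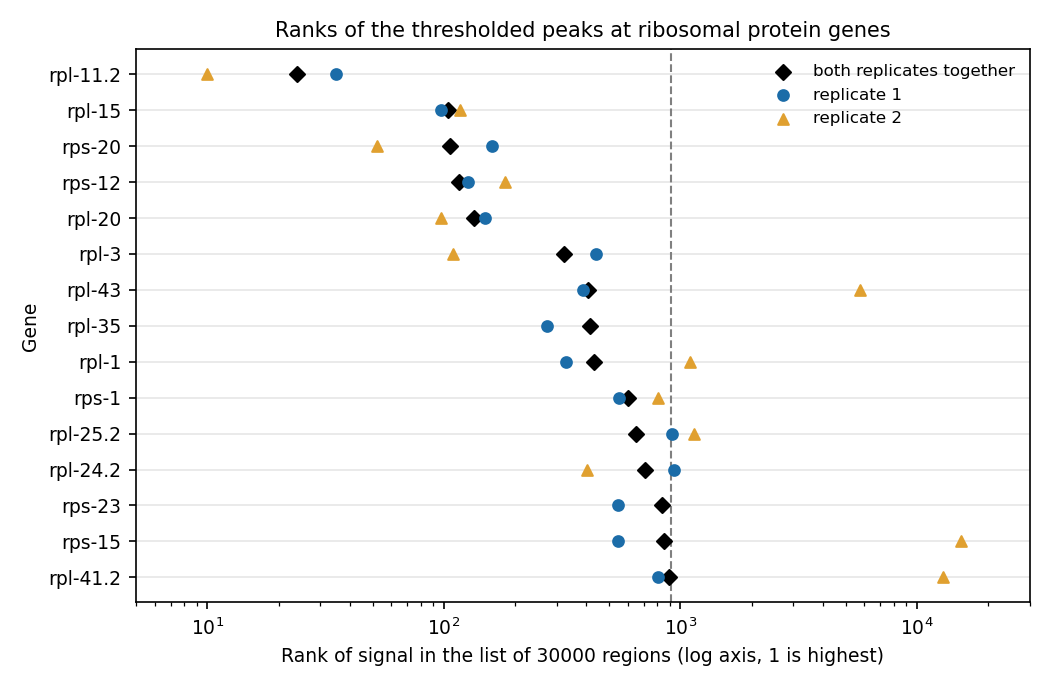
Rank of the summit in the joint list and in each replicate's list (log axis, 1 is highest) for the 15 members with a thresholded peak. The dashed line marks rank 910. The 6 genes at the top rank above it in every list, while rpl-43, rps-15 and rpl-41.2 rank below 5000 in replicate 2.

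The 910 highest regions of each replicate alone marked 15 members in replicate 1 and 15 in replicate 2 (19.0% each, against 2.47% and 2.53% of all genes). Of these, 13 and 9 also had a thresholded summit. The 8 members marked in both replicates alone were rpl-3, rpl-11.2, rpl-15, rpl-20, rpl-35, rps-1, rps-12 and rps-20. Members marked by replicate 1 alone and not by the thresholded set were rpl-12, whose protein is at the base of the ribosomal stalk, and rps-19. Those marked by replicate 2 in the same way were rpl-23, rpl-24.1, rps-8, rps-10, rps-11 and rps-18. Taking all 30000 regions, 62 members (78.5%, against 40.2% of all genes) had a summit in replicate 1 and 57 (72.2%, against 39.0%) in replicate 2. The rpl-23 region illustrates the gap between libraries, with rank 176 in replicate 2 and 22092 in replicate 1.

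Summits were set back from the annotated starts. Their median distance was 272 bp upstream (quartiles 220 and 384) for the 15 members, and 250 bp (120 and 474) for the 496 other genes with a thresholded summit. The members' summits lay from 160 bp upstream, at rpl-24.2, to 431 bp upstream, at rpl-35, apart from that of rpl-43 at 737 bp. Of the 61 members with a joint summit the quartiles were 233 and 431 bp, and those of the 8040 other genes were 104 and 626 bp. The medians were close, at 308 bp in the 61 members and 318 bp in the others, and the member summits were less spread. Messages of many worm genes are trimmed at the 5′ end by trans-splicing, so the true start of transcription can lie upstream of the annotated one.

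**Figure D3:**
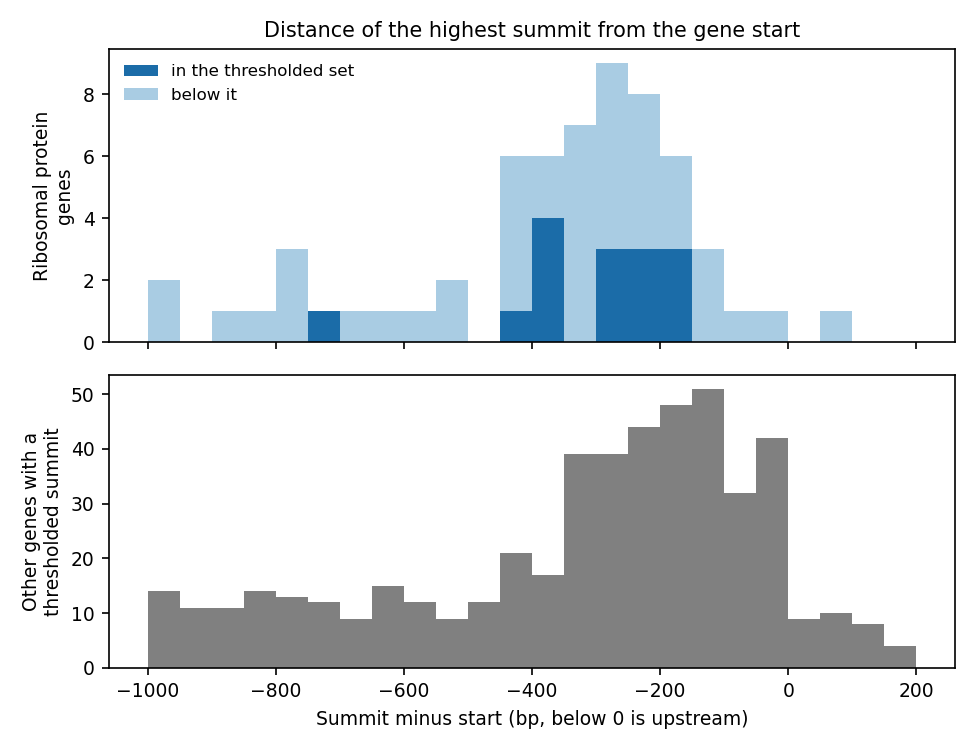
Number of genes by the distance of their highest summit from the start, in bins of 50 bp. Upper panel, the 61 members with a joint summit, 15 of them in the thresholded set (dark); lower panel, the 496 other genes with a thresholded summit, whose quartiles of 120 and 474 bp upstream are wider than the 220 and 384 bp of the 15 members.

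Most of these peaks lay between neighbouring starts. Of the 15 summits, 10 also lay in the promoter window of another protein-coding gene (66.7%, against 39.7% of the 511 genes with a thresholded summit), and at 6 of them the other gene's start was nearer. These 6 were rpl-1 (with Y71F9AL.9, 225 bp away), rpl-20 (Y17G9B.5, 164 bp), rpl-43 (Y48B6A.1, 184 bp), rps-12 (ska-3, 121 bp), rps-20 (ekl-4, 163 bp) and rps-23 (dpm-3, 266 bp). At rps-23 the starts are almost equally far, 268 bp for the member. At rpl-15, rpl-25.2, rps-1 and rps-15 the summit was shared but nearer to the member. The other gene at rps-1 is ifet-1, which encodes a protein that represses translation in the germline. The peaks in no other window were those of rpl-3, rpl-11.2, rpl-24.2, rpl-35 and rpl-41.2. All 5 small subunit peaks were shared, as were 5 of the 10 of the large subunit.

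**Figure D4:**
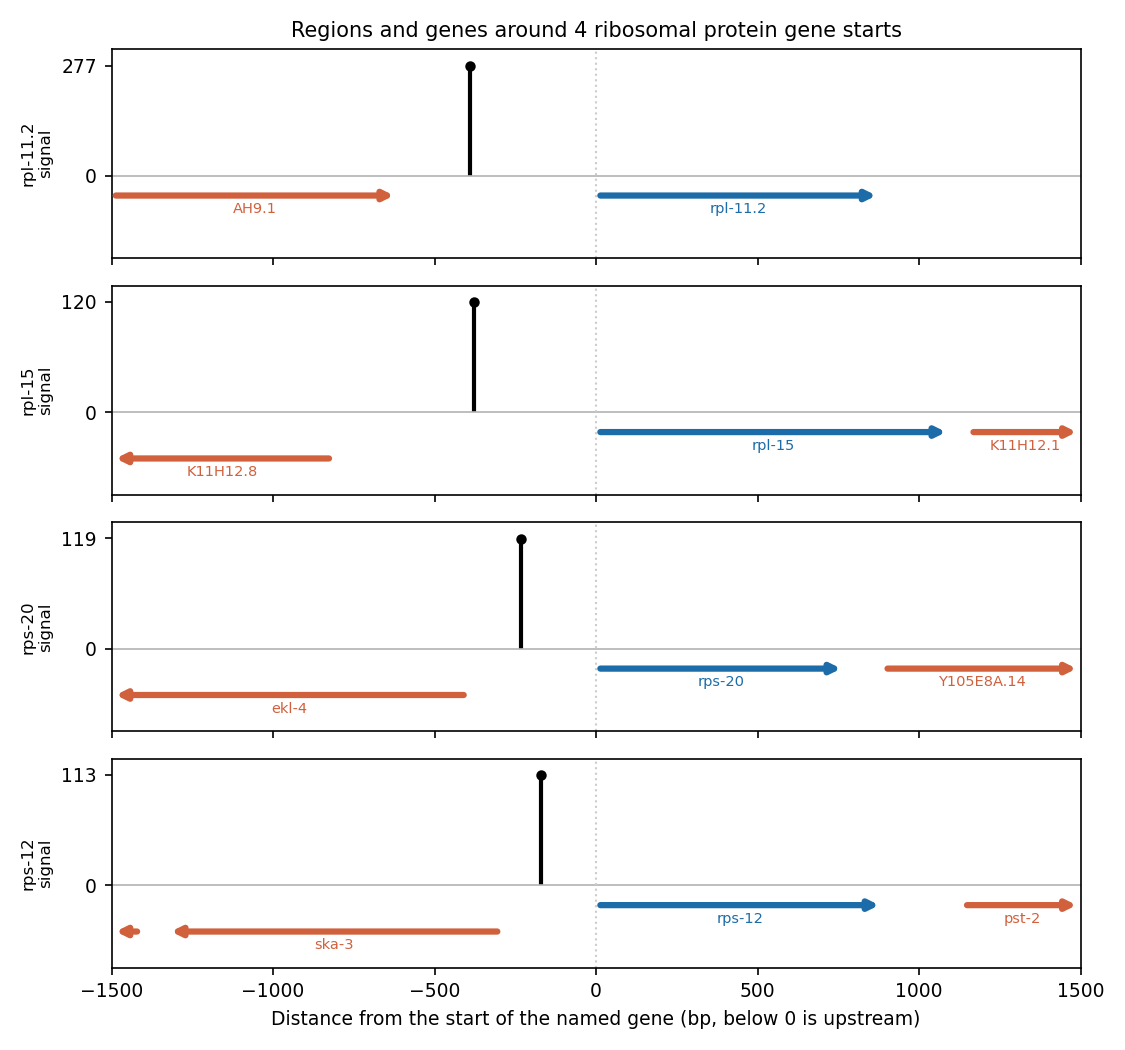
Joint regions (vertical lines, signal on the authors' scale; black, in the thresholded set) and protein-coding genes (arrows, blue for the member) around the starts of rpl-11.2, rpl-15, rps-20 and rps-12, by distance from the start in bp. Each locus has 1 region, upstream of the member, and at the lower 3 the neighbour upstream is read in the other direction.

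The placement of the genes differed from that of other genes. Only the nearest protein-coding gene upstream of the start, or overlapping it, was considered for each gene. This neighbour was counted if it was read in the opposite direction and overlapped the start or had its near end within 1000 bp upstream. Such a neighbour was found for 48 of 79 members (60.8%), against 21.3% of all genes. At rpl-24.2 and rpl-37 the neighbour (C03D6.1 and pitp-1) had a gap of 0 bp, and rpl-24.2 is among those with a thresholded summit. Thresholded summits were more frequent beside such neighbours in both sets, so the comparison was repeated within each class. With such a neighbour, 11 of 48 members had a thresholded summit (22.9%), against 4.35% of 4248 genes. Without one, 4 of 31 members did (12.9%), against 2.07% of 15725 genes. Members that were themselves the nearest start of a thresholded summit numbered 9 (11.4%), against 2.01% of all genes.

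At 3 places a single joint summit lay in the windows of 2 members read in opposite directions: rpl-24.1 with rps-10 (signal 42.1), rpl-39 with rps-30 (30.5) and rpl-36 with rps-14 (20.3). None of the 3 was in the thresholded set. The rpl-24.1 and rps-10 summit, at rank 984, was the highest of all member summits outside it, and it ranked 625 in replicate 2 and 1391 in replicate 1.

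Below the threshold, 46 members had a joint summit, with signals from 13.1 to 42.1 and a median of 24.7. The highest after rpl-24.1 and rps-10 were rpl-23 (41.9), rpl-12 (41.6), rps-22 (39.6), rpl-28 (38.7), rpl-18 (37.1), rps-18 (34.7), rpl-38 (34.6) and rps-21 (33.4). Of the 46, 17 had a summit within 100 bp in both replicates, 19 in replicate 1 alone, 6 in replicate 2 alone and 4 in neither. The stalk proteins, which recruit elongation factors to the large subunit, were in this lower part: rla-2 had 23.5 (rank 5053), rla-0 had 17.3 (rank 14383) and rla-1 had 15.4 (rank 20420). rps-6, whose protein is the classical substrate of S6 kinase, had 16.4 (rank 16956), and rpl-5, whose protein binds 5S ribosomal RNA together with L11, had 23.9 (rank 4781). Of the 61 members with a joint summit, 36 shared it with another gene's window (59.0%, against 27.2% of all genes with one). The rla-2, rla-1 and rpl-5 summits were nearest to other starts, those of Y62E10A.24 (24 bp), Y37E3.8 (163 bp) and col-38 (53 bp). So were those of rps-6 (usp-3, 211 bp), rps-18 (sec-61.A, 175 bp) and rpl-28 (mrpl-49, 224 bp).

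No joint summit was found in the windows of 18 members: rpl-2, rpl-9, rpl-11.1, rpl-16, rpl-17, rpl-21, rpl-25.1, rpl-26, rpl-27, rpl-29, rpl-31, rpl-33, rpl-34, rps-9, rps-16, rps-25, rps-26 and rps-27. Of these, rpl-2, rpl-16, rpl-17, rpl-26, rpl-29, rps-9 and rps-16 also had none in the list of either replicate. The 18 members with no joint summit comprise 13 of the 48 large subunit genes and 5 of the 31 small subunit genes. Near neighbours of opposite direction were found for 12 of the 18 (66.7%) and for 11 of the 15 with a thresholded peak (73.3%). Among the 46 with a joint summit only they were found for 25 (54.3%). The lists are cut at a fixed number of regions, so such genes are below the lowest listed signal and not shown to be unbound. The next gene upstream of rps-16 is fib-1, on the same strand with a gap of 109 bp. A thresholded summit (74.6) lay 29 bp upstream of the fib-1 start, outside the rps-16 window. Same-strand neighbours were about as near at rpl-16 (lias-1, 105 bp), rpl-25.1 (glit-1, 97 bp) and rpl-27 (C53H9.2, 119 bp). Whether such genes are transcribed from a start beyond their window was not tested.

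Genes whose names differ in the decimal suffix alone form 4 pairs, and in each pair the gene numbered 2 had the thresholded peak and the gene numbered 1 did not. The widest gap was at L11: rpl-11.2 on X had a signal of 277.1, whereas rpl-11.1 on V had no joint summit and a rank of 16526 in replicate 1. Likewise rpl-25.2 on chromosome I had 49.7, and rpl-25.1 on X had no joint summit and ranked 25447 in replicate 2. At rpl-24.2 the signal of 48.3 was close to the 42.1 of rpl-24.1, and both ranked between 401 and 1391 in the replicates. At rpl-41.2 it was 43.6, against 24.9 at rpl-41.1, and replicate 2 alone gave the reverse order, with ranks of 12879 for rpl-41.2 and 1735 for rpl-41.1. The rpl-41.1 summit lay 754 bp upstream of its start and 78 bp from that of M04F3.5, whose window it shared, so it cannot be given to rpl-41.1. The last pair lies side by side on chromosome I, with 699 bp between both genes.

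By chromosome, thresholded summits were found at 6 of 25 members on I, 1 of 9 on II, 4 of 18 on III, 3 of 17 on IV, 0 of 8 on V and 1 of 2 on X. In all genes the share ran from 1.74% on IV to 3.56% on III, and it was 1.86% on V.

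The summits of the members differed in base composition from other peaks. GC content within 50 bp was 50.1% over the 15 summits, against 44.0% over the 406 distinct thresholded summits in any promoter window and 43.8% over all 910. At the 43 distinct member summits below the threshold it was 38.5%. Windows of the same length centred 300 bp upstream of the start had 39.8% over the 79 members and 34.4% over all genes.

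A list of 7 words was counted, 5 of which came from earlier results on these data. GACGCA stood within 50 bp of 5 of the 15 summits (33.3%): rpl-3, rpl-24.2, rpl-25.2, rpl-43 and rps-1. It was found at 15% of thresholded promoter summits, 12% of all 910 and 2.56% of the fixed windows of all genes. GAGAGA was at 2 of the 15 (rpl-11.2 and rpl-24.2; 13.3%), against 24.6% of thresholded promoter summits, 28.8% of all 910 and 6.11% of fixed windows. Within 100 bp it was at 5 of the 15 (33.3%) and 48% of all 910. Around the highest regions of replicate 2 alone, it was at 21.4% of 14 member summits and 20% of all 910, so the lower share at members was not seen in that library. ATGGCA was at rps-1 and rps-12 (13.3%), against 14.8%, 15.2% and 3.17% in the same sets. AATCAC, the core of the site of vertebrate Gfi1, was at rpl-24.2 alone (6.67%), against 5.42% of thresholded promoter summits, 5.05% of all 910 and 5.49% of fixed windows. At the 43 member summits below the threshold it was found at 6 (14%). TATAAA was at rpl-1 alone (6.67%), against 5.42%, 5.27% and 12.7% in the same sets. CACGTG was at none, nor was the word CCGCCC, where 15 summits would allow a share of up to 20%. In the same sets CACGTG was at 5.17%, 5.71% and 1.56%, and CCGCCC at 4.19%, 4.29% and 1.95%, so 15 summits are too few to show a lower share.

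Other words recurred at these summits and were chosen after the sequences were read, so their counts there are only a description. ACACTCG was within 50 bp of 6 of the 15 summits (rpl-3, rpl-11.2, rpl-15, rpl-20, rpl-24.2 and rps-23), and these made up 6 of the 13 such summits among all 910 (1.43%). TACCGTA was also at 6 (rpl-3, rpl-11.2, rpl-20, rpl-43, rps-20 and rps-23), of 14 among the 910 (1.54%). The shared run of 12 bases at rpl-15, rpl-20 and rps-12 had 1 further match among the 910. At least 1 of these words was at 9 of the 15 summits (60.0%) and at 2.64% of all 910. The run of 12 begins with the last letters of TACCGTA, so matches to both can overlap, but at rpl-20 they lie apart.

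The same words were then counted in promoter windows set by the gene start. In windows centred 300 bp upstream of the start, ACACTCG was found in 3 of 79 members (3.80%) and 0.531% of all genes, and TACCGTA in 7 (8.86%) and 1.54%. Over the whole promoter window, ACACTCG was found in 21 members (26.6%) and 5.97% of genes, TACCGTA in 19 (24.1%) and 14.7%, and the run of 12 in 4 (5.06%) and 1.09%. Many of these windows overlap the summits at which the words were read. The 64 members with no thresholded summit were therefore set against the 19462 genes with none. Among them, ACACTCG was in the whole window of 14 members (21.9%), against 5.88% of genes, TACCGTA in 11 (17.2%), against 14.7%, and the run of 12 in 1 (1.56%), against 1.07%. In the windows centred 300 bp upstream they were in 1, 2 and 0 of the 64 members (1.56%, 3.12% and 0%). The shares of the 19462 genes there were 0.509%, 1.53% and 0.108%. GC content differs between members and all genes, as given for the fixed windows.

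At rpl-11.2 and rps-23, ACACTCG and TACCGTA abut to form the same run of 14 bases, seen in the printed sequences at the end of the rpl-11.2 window and, on the other strand, in the middle of that of rps-23. The nuclear genome holds 17 copies of it, 8 of them in member windows, at 9 members because rpl-24.1 and rps-10 share one. Over whole promoter windows this is 11.4% of the 79 members and 0.125% of all genes, and 6 of the 64 members with no thresholded summit (9.38%), against 0.103% of genes with none. Each copy holds both words, so these counts are not separate from those above. The 9 members are among the 21 with ACACTCG and the 19 with TACCGTA. Likewise the 6 are among the 14 and the 11 of the 64. The other members with a copy were rpl-1, rpl-21, rpl-34, rps-13 and rps-18. The copies lay from 170 bp upstream of the start, at rps-13, to 653 bp, at rps-18. A joint summit was within 170 bp of 4 of the 8 copies, those of rpl-11.2 (rank 24), rps-23 (rank 835), rpl-24.1 with rps-10 (rank 984) and rps-18 (rank 1613), and of 1 of the other 9. The copy at rpl-1 was 184 bp from the summit of its thresholded peak (rank 432) and 7 bp outside the edge of that region. The copies at rps-13, rpl-21 and rpl-34 were 644, 827 and 1204 bp from the nearest joint summit.

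Genes with related functions were listed for comparison, beside the 2.56% of all protein-coding genes with a thresholded summit. Mitochondrial ribosomal protein genes, whose products form the separate ribosome of mitochondria, had a thresholded summit at 1 of 66 (mrpl-15, signal 59.0; 1.52%, Wilson 95% interval 0.268 to 8.10). Among the highest 5000 regions, 53.2% of the cytosolic genes had a summit, against 21.2% of the mitochondrial ones and 11.7% of all genes. Elongation and termination factors had 2 of 11 (18.2%), eef-1A.1 (85.5), which brings transfer RNA to the ribosome, and iff-2 (73.1), a homologue of eIF5A. Initiation factors had 1 of 28 (3.57%), the scaffold gene ifg-1 (74.9). The 53.2% of ribosomal protein genes with a summit among the highest 5000 regions compare with 51.3% of the 39 genes of both groups of factors, and the 77.2% with any joint summit compare with 84.6%. These shares include the thresholded summits, and the difference between both sets was not tested.

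**Figure D5:**
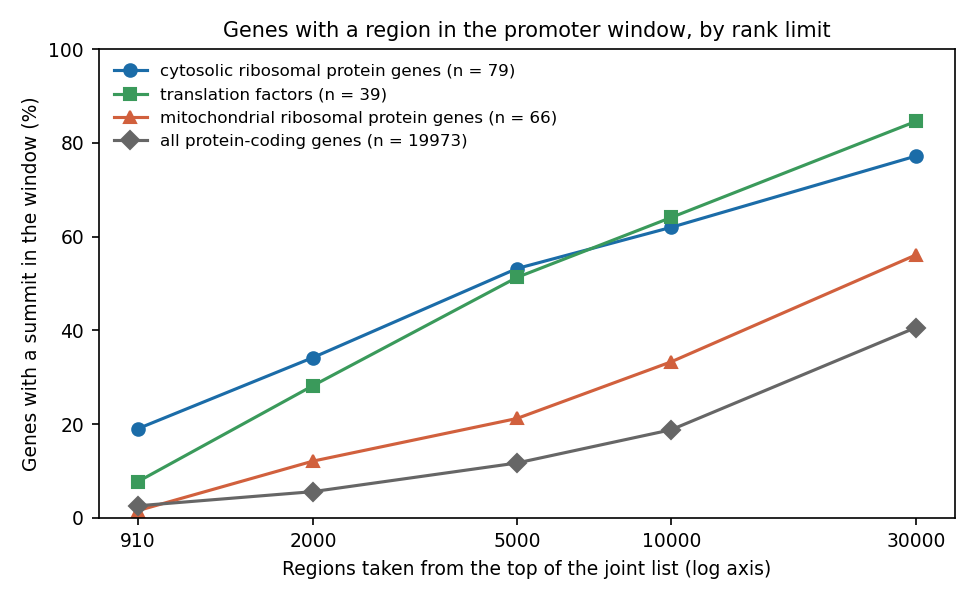
Percentage of genes with a summit in the promoter window when the highest 910, 2000, 5000, 10000 or 30000 regions of the joint list are taken (log axis). Cytosolic ribosomal protein genes stand at 19.0% and translation factors at 7.69% at rank 910, and both lie above 50% at rank 5000, where all genes are at 11.7%.

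Among 23 genes of ribosome biogenesis and RNA polymerase I, 3 had a thresholded summit (13.0%, Wilson 95% interval 4.54 to 32.1, against 2.56% of all genes). They were fib-1 (74.6), which encodes the nucleolar protein fibrillarin, pro-1 (57.9) and nol-58 (56.9). Any joint summit was found at 10 of the 23 (43.5%), near the 40.6% of all genes. None of 20 genes of growth signalling had a thresholded summit, among them the TOR kinase gene let-363 and the S6 kinase gene rsks-1. The Wilson 95% interval of that share, 0 to 16.1, includes the 2.56% of all genes. Of the genes for ribosomal proteins that the name rule misses, ubl-1, whose product joins a ubiquitin-like domain to a small subunit protein, had a thresholded peak (48.5). The others had none: rpl-36.A had a joint signal of 34.8 (rank 1594), ubq-2 had 19.7 (rank 9358), and rack-1 and rpl-7A had no joint summit.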

How the data were processed

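Peak lists of 2 ChIP-seq libraries on ce11 were used. Per the file headers and descriptions, the authors derived each replicate's list from its alignments against 1 control file, the joint list from both, and thresholded the set by IDR. The sources used here name no aligner or caller. Signal, the caller's height for a region as deposited, has no stated scale and served only for ranking and description inside each list. The deposited score in the q-value column was not used. The deposited summit offset gave each summit. Depth is unknown, so intervals cover counting error of gene counts only.

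Genes and starts (1 per gene, the outer end of the model) came from Ensembl release 115 on WBcel235, sequence from RefSeq, the same assembly as ce11. Summits within 100 bp were matched between lists. Python 3.11.15, numpy 2.4.6 and SciPy 1.17.1 were used; placement in windows was tested on simulated data. With 1 group, no test was run. The text names every member with a thresholded summit, the 10 highest below, those without a summit, suffix pairs, and genes sharing a peak; other members were named after their values were seen. Members and lists were chosen with earlier results of these data known. Names absent from the annotation were left out of the comparison lists. The ce10 lists were not used. Alternatives were other windows, each replicate alone, the 455 peaks of higher signal, and other matching and word distances.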

Additional observations from a re-analysis of the deposited data

How the results depend on the processing

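Counts were recomputed under 43 alternatives. For distances and ranks, closeness was judged by the standard deviation of the 2 single-replicate values. These values were themselves among the alternatives, so for them this is no separate check. Of the 43, 34 gave counts within 1.5 times, or values within this replicate spread or the binomial interval, of those reported. That interval is wide for GAGAGA at 15 summits (13.3%), whose share was 6.67% within 25 bp (15.5% of all 910), 33.3% within 100 bp, and 6.67% and 21.4% in replicates 1 and 2 alone (32.1% and 20% of all regions taken). The 15 members with a thresholded summit became 14 to 16 under other windows, any overlap of a peak, any transcript start or either replicate alone, while the share of all genes ran from 1.96% to 3.58%. With the 455 peaks of higher signal they were 9 (against 1.23% of genes), 2 of them in the small subunit. Then 8 had a summit in both replicates, 4 were the nearest start, and the median distance was 377 bp. With a window of 2000 bp that distance was 285 bp. Mitochondrial genes numbered 0 with 500 bp and 2 with 2000 bp. The median rank of member summits was 2466 in replicate 1 alone and 4531 in replicate 2 alone. The list of 455 peaks is smaller by its making, and the causes of these changes were not tested. Summits within 50 bp in both replicates left 9 of the 15 peaks, and within 200 bp all 15. The word ACACTCG, the word TACCGTA and the runs of 12 and 14 bases were chosen after seeing the data. Depth is unknown, so a missing summit is a signal below the listed range.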

Other observations

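Genes of small nucleolar RNAs, which guide the modification of ribosomal RNA, lay inside the gene body and on the same strand in 12 of the 79 ribosomal protein genes (15.2%), against 0.796% of all protein-coding genes. They were present in 3 of the 15 members with a thresholded summit (rpl-15, rps-12 and rps-23), in 7 of the 46 with a joint summit only and in 2 of the 18 with none.

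Ribosomal protein genes were short, with a median gene length of 754 bp against 2027 bp for all genes. The gap to the next protein-coding gene upstream had a median of 557 bp in the 79 members and 936 bp in all genes, and of 699 bp in the 15 members with a thresholded summit.

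The run of 14 bases seen at rpl-11.2 and rps-23 also lay in the promoter windows of F54A3.6, rpn-5 with scc-1, C08H9.16, npp-3 with top-2, pdtf-1 with T26A8.4, Y73B3A.20 with Y73B3A.1, and fubl-3. Of these, only the copy at pdtf-1 had a joint summit within 170 bp (signal 34.8, rank 1597). Another copy was 348 bp from the start of rpl-19, outside its promoter window.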
